A study of Homo sapiens with 12 samples.

Results

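Parental HCT116 Tet-OsTIR1 cells were compared with and without the drug pair that drives an auxin-inducible degron, namely doxycycline (Dox) and the auxin indole-3-acetic acid (IAA). HCT116 is an established human colorectal carcinoma line. The parental cells carry a transgene for OsTIR1, the auxin-binding F-box protein of rice, at both alleles of the AAVS1 site under a tetracycline-inducible promoter, and their SDS22 (gene PPP1R7) is untagged. Of the 12 libraries of the series, the 6 that the labels name as parental were used, 3 from untreated cells and 3 from cells that received Dox (2 µg/ml) and IAA (500 µM) over 48 h. Both parental groups carry the OsTIR1 transgene, so that the treatment adds Dox, IAA and the OsTIR1 protein together, and their parts cannot be told apart. The other 6 libraries come from SDS22-degron cells, a line grown from a single isolated colony in which endogenous SDS22 was fused to a degron, and they received the same treatment (3 libraries) or none (3 libraries). They served as a comparison and helped to estimate the spread between libraries.

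Dox is a tetracycline antibiotic that inhibits bacterial ribosomes and, more weakly, the related ribosomes of mitochondria. IAA is an indole, a chemical class that includes ligands of the aryl hydrocarbon receptor (AHR), a transcription factor that switches on cytochrome P450 genes. In a cell without a degron tag, OsTIR1 joins the SCF ubiquitin ligase, but has no tagged target. These points are background and were not tested here.

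Between 12218784 and 13336834 reads were counted on genes in the 6 parental libraries. EPCAM, CDH1, KRT8, KRT18, KRT19, CLDN4, CLDN7 and CDX2, markers of a colon epithelial line, were at 20.5 CPM or more in every parental library. The other markers of that list, VIL1 and LGR5, had at most 1 count per library. CPM are the reads of a gene scaled to the depth of its library. Those of markers use the total count alone, and all others below are after TMM normalisation. Blood markers summed to at most 0.244 CPM in any parental library. The fibroblast list summed to 9.66 to 13.6 CPM in untreated and 17.3 to 23.5 CPM in treated cells, and was nearly all COL1A1, with COL1A2 and DCN at 0 counts in all 6. The kidney list summed to 6.79 to 8.67 and 9.97 to 11.5 CPM, mostly PAX2. One library stood apart, as untreated replicate 1 had several times more mRNA for the endoplasmic reticulum (ER) stress genes DDIT3 and HERPUD1 than the other 2, and results that rest on it are also given without it.

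Dox/IAA changed the abundance of many mRNAs of the parental cells, mostly by little. Of 16657 genes tested, 5264 (31.6%) passed an adjusted p of 0.05, of which 2656 (15.9%) were higher and 2608 (15.7%) lower with Dox/IAA. The quasi-likelihood test of edgeR gave all p-values for genes, which were adjusted for the number of genes tested (Benjamini-Hochberg). A value in brackets after a gene is its log2 fold change, Dox/IAA over untreated. The median log2 fold change was 0.45 among the higher and -0.40 among the lower genes, and 348 and 121 of them had an absolute value above 1. The study's cut-off asks for a change by more than 1 on the log2 scale at a p under 0.05 without adjustment, and it gave 391 higher (2.35%) and 132 lower genes (0.792%). The 3 treated libraries lay wholly above or below the 3 untreated ones for 41.3% of the genes tested (above for 21.1% and below for 20.2%). With scaling by library size only, which raised the median log2 fold change of all genes to 0.06, 3503 genes were higher and 1958 lower, so that the higher genes made up 64.2% of the calls instead of 50.5%. The labels call the 3 libraries of a group biological replicates, and since they come from a single cell line, the p-values measure the spread between its cultures.

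**Figure D1:**
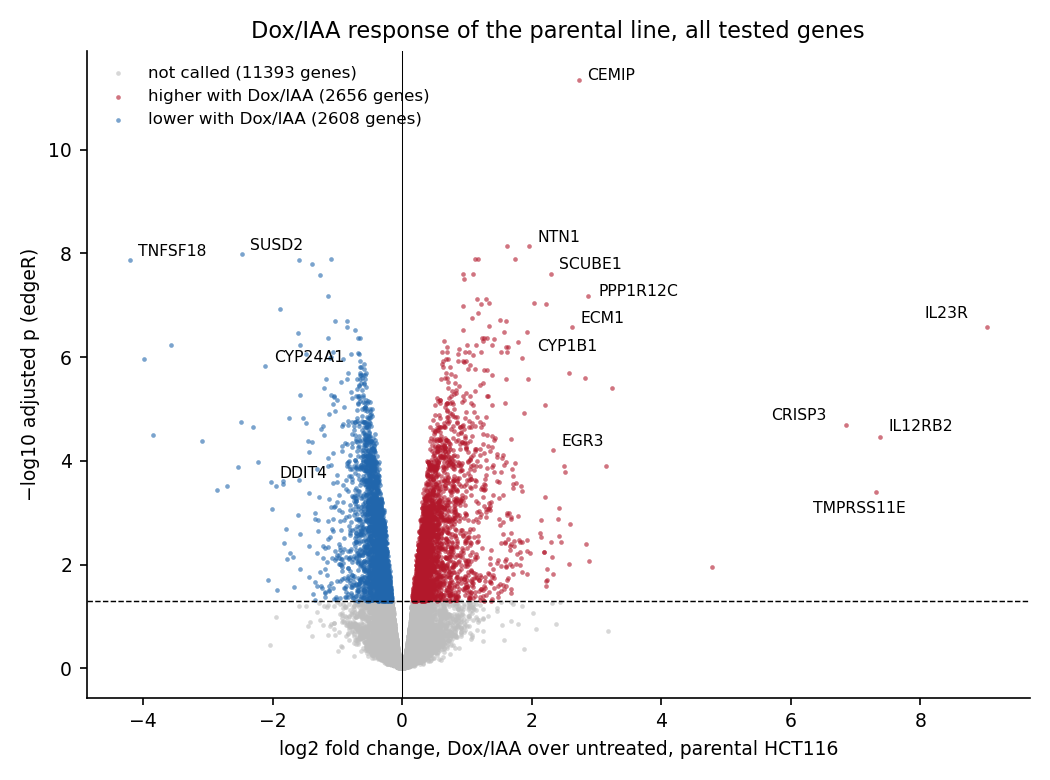
Each point is 1 of the 16657 genes tested in the parental line, with the log2 fold change (Dox/IAA over untreated) on the x axis and −log10 of the adjusted p on the y axis. The dashed line marks an adjusted p of 0.05, and the 2656 higher and 2608 lower genes lie above it in red and blue. The fold changes of IL23R, IL12RB2, TMPRSS11E and CRISP3, far to the right, have untreated libraries with 0 or 1 count and depend on the prior count.

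Few genes went from silence to clear expression. By a rule set after the values were seen (at most 3 counts over one parental group and at least 30 over the other), 4 genes qualified, and they were on with Dox/IAA in each case. IL23R (ENSG00000162594, chr1:67138907-67259979, plus strand), which encodes a subunit of the interleukin-23 receptor, had 0, 0 and 0 counts in untreated and 65, 62 and 68 counts in treated libraries. Against a floor of 3 counts over the untreated group, it was at least 64.3-fold higher. Its neighbour IL12RB2 (ENSG00000081985, chr1:67307364-67396900, plus strand), a subunit of the interleukin-12 receptor, had 0, 0 and 0 and 19, 19 and 24 counts, and was at least 20.4-fold higher. The protease gene TMPRSS11E (ENSG00000087128, chr4:68447449-68497604, plus strand) had 0, 0 and 0 untreated and 18, 32 and 9 treated counts, at least 19.4-fold higher on the same floor. CRISP3 (ENSG00000096006, chr6:49727384-49744437, minus strand), a gene of the cysteine-rich secretory protein family, had 0, 1 and 0 and 83, 20 and 62 counts. This is a ratio of 163 with an exact 95% interval from 28.9 to 6485 that covers counting error only. These values chose the genes, so that no test of them is given. The same 4 genes were at 0, 0 and 0 counts in untreated SDS22-degron cells each, and reached 51, 70 and 74 counts for IL23R, 7, 12 and 17 for IL12RB2, 15, 5 and 15 for TMPRSS11E and 70, 54 and 75 for CRISP3 with Dox/IAA.

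The host gene of the transgene site rose as well. PPP1R12C (ENSG00000125503, chr19:55090913-55117559, minus strand), a gene for a myosin phosphatase targeting subunit whose first intron holds the AAVS1 site, had 16, 15 and 10 counts in untreated and 113, 97 and 109 counts in treated parental libraries. In CPM these were 1.35, 1.17 and 0.824 against 8.47, 7.66 and 8.57, a log2 fold change of 2.87 (SE 0.214, adjusted p = 6.67e-08), and the value in SDS22-degron cells was 3.91. Whether the reads derive from the host gene or from transcripts that start in the transgene was not tested. Among the 8 tested protein-coding genes within 100 kb of PPP1R12C, 2 were higher, EPS8L1 by a log2 fold change of 0.93 (adjusted p = 4.39e-05) and PTPRH by 0.57 (adjusted p = 0.00228). The dynein assembly factor gene DNAAF3 fell by 0.31 on the log2 scale (adjusted p = 0.016), and the other 5 were not called. Among all genes tested, 15.9% were higher and 15.7% lower, and counts this small among 8 genes cannot be told from those shares.

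Among genes with a mean of at least 5 CPM over the 6 parental libraries, and with groups that do not overlap, which was part of the choice, the largest increase was that of CEMIP (ENSG00000103888, chr15:80779343-80951776, plus strand), which encodes a protein of hyaluronan breakdown. It was at 39.8, 36.5 and 38.4 CPM in untreated and 252, 227 and 281 CPM in treated libraries, a log2 fold change of 2.73 (SE 0.0992, adjusted p = 4.58e-12). It overlaps MESDC2 on the opposite strand, and whether reads were counted by strand is not given in the sources used here. It was followed by ECM1 (ENSG00000143369, chr1:150508062-150513789, plus strand), an extracellular matrix glycoprotein, which went from 1.18, 2.35 and 1.24 to 8.77, 11.8 and 9.13 CPM (2.62, SE 0.222, adjusted p = 2.68e-07). SCUBE1 (ENSG00000159307, chr22:43197283-43343388, minus strand), a secreted and cell-surface protein, went from 2.03, 2.19 and 2.14 to 11.5, 9.72 and 10.1 CPM (2.3, SE 0.158, adjusted p = 2.44e-08). NTN1 (ENSG00000065320, chr17:9021542-9244000, plus strand), the axon guidance ligand netrin-1, went from 5.402, 4.53 and 4.697 to 20.5, 19.04 and 17.5 CPM (1.96, SE 0.116, adjusted p = 7.16e-09). The remaining 8 were ZNF608 (2.22), a zinc finger gene, ARHGAP31 (2.03), a GTPase-activating protein, CYP1B1 (1.93), a cytochrome P450, SMPD1 (1.85), the lysosomal acid sphingomyelinase, CHRD (1.78), the BMP antagonist chordin, MRC2 (1.74), a collagen-binding endocytic receptor, FER1L4 (1.70), a pseudogene transcript, and RASSF2 (1.64), a RAS association domain protein. Their adjusted p ranged from 1.29e-08 for MRC2 to 0.000141 for FER1L4.

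Among genes chosen in the same way, the largest decrease was that of TNFSF18 (ENSG00000120337, chr1:173039960-173050963, minus strand), the ligand GITRL of the TNF superfamily. It fell from 16.2, 12.7 and 18.95 CPM to 0.5998, 0.632 and 1.34 CPM, a log2 fold change of -4.21 (SE 0.275, adjusted p = 1.34e-08). SUSD2 (ENSG00000099994, chr22:24181259-24189110, plus strand), a membrane protein gene, fell from 26.2, 22.2 and 31.3 to 4.12, 4.19 and 5.98 CPM (-2.48, SE 0.151, adjusted p = 1.02e-08). CYP24A1 (ENSG00000019186, chr20:54153449-54173973, minus strand), the enzyme that inactivates vitamin D, fell from 281, 229 and 326 to 47.5, 62.3 and 83.5 CPM (-2.11, SE 0.211, adjusted p = 1.47e-06). The next were KRT7 (-1.89), a keratin, RGS16 (-1.75) and RGS2 (-1.60), regulators of G-protein signalling, GRIN2B (-1.58), a glutamate receptor subunit, SLC1A3 (-1.57), a glutamate and aspartate transporter, NR2F1 (-1.53), an orphan nuclear receptor that overlaps NR2F1-AS1 on the opposite strand, and ROR1 (-1.49), a receptor tyrosine kinase-like protein. Their adjusted p ranged from 1.16e-07 for KRT7 to 1.52e-05 for RGS16. The other 2 of the 12, DDIT4 and CHAC1, belong to the stress genes described below.

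**Figure D2:**
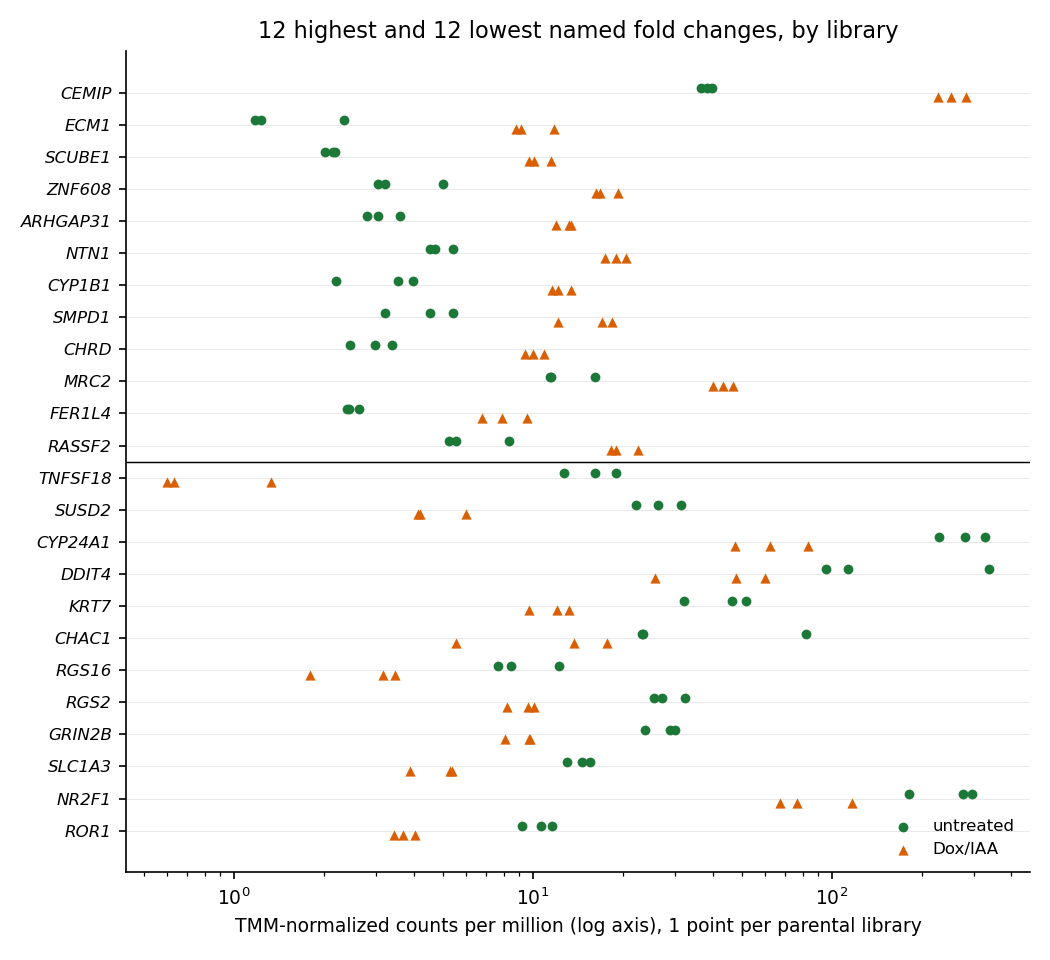
TMM-normalized CPM on a log axis of the 12 highest and the 12 lowest genes in each of the 3 untreated (green circles) and 3 treated (orange triangles) parental libraries, among genes with a mean of at least 5 CPM. The 24 genes were chosen among those whose groups do not overlap, and untreated replicate 1 is the high point of DDIT4 and CHAC1.

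AHR is a cytosolic receptor that, once it has bound a ligand, pairs with ARNT and activates genes of xenobiotic metabolism together with its own repressors. Of 10 AHR targets tested, 4 were higher (40.0%) and 2 lower (20.0%), with a list median of -0.14. Among all genes tested, 15.9% were higher and 15.7% lower, so that the share of lower members is near that of all genes. The 4 were the P450 genes CYP1B1 and CYP1A1 and the repressors AHRR and TIPARP. CYP1B1 (ENSG00000138061, chr2:38066973-38109902, minus strand) went from 2.19, 3.99 and 3.54 to 12.1, 13.4 and 11.6 CPM (1.93, SE 0.166, adjusted p = 3.29e-07). CYP1A1 (ENSG00000140465, chr15:74719542-74725610, minus strand), the classical AHR-induced P450, went from 6.75, 9.69 and 7.33 to 12.4, 17.1 and 14.1 CPM (0.87, SE 0.176, adjusted p = 0.00108). Its treated libraries were all above the untreated ones, but the lowest treated value, 12.4 CPM, was close to the highest untreated one, 9.69 CPM. The feedback repressors AHRR, from 37.8, 43.9 and 40.6 to 95, 75.1 and 81.2 CPM (1.04, adjusted p = 8.07e-07), and TIPARP, from 140, 141 and 132 to 215, 197 and 209 CPM (0.59, adjusted p = 6.57e-06), rose in every treated library. AHRR shares its strand and part of its position with PDCD6, while CYP1B1 and TIPARP overlap RMDN2 and TIPARP-AS1 on the opposite strand. NQO1, a quinone reductase (-0.10, adjusted p = 0.506), ALDH3A1, an aldehyde dehydrogenase (-0.24, adjusted p = 0.636), CYP2S1, a P450 (-0.18, adjusted p = 0.0933), and ABCG2, an export pump (-0.40, adjusted p = 0.371), were not called, and STC2 (-0.93) and EREG (-0.40) were the lower members. These 6, like other list members named here that were not among the 3 of smallest p, were chosen after their values were seen.

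Of 7 components of the AHR pathway, 3 were higher (42.9%) and 1 lower (14.3%), against 15.9% and 15.7% of all genes tested. Counts this small among 7 genes cannot be told from those shares. The partner genes ARNT (0.41, adjusted p = 0.000156) and ARNT2 (0.61, adjusted p = 0.00192) rose, and the chaperone HSP90AB1 fell from 3740, 4404 and 3820 to 2504, 2897 and 2543 CPM (-0.59, adjusted p = 3.61e-05). Without treated replicate 2, 3 components were lower. A fit in which the replicate number was a block gave 2. AHR itself was at 20.1, 24.8 and 26.4 CPM untreated and 20.7, 18.9 and 26.1 CPM treated, a log2 fold change of -0.12 (adjusted p = 0.491), and its groups overlapped. The core of the xenobiotic response element, GCGTG on either strand, was found in the promoter window of 7 of the 8 AHR targets with a RefSeq promoter, and of all 35116 promoters 36.5% hold it. All 3 higher and all 2 lower members with a promoter held it, so that it did not follow the direction of change. CYP1B1 had no promoter in this search, and the list was drawn up from known AHR targets. The promoter of TIPARP (RefSeq, GRCh38.p14, chr3:156674340-156674639, plus strand, the first of 3 listed starts) is shown with the core, on the minus strand here, in capitals:
TIPARP: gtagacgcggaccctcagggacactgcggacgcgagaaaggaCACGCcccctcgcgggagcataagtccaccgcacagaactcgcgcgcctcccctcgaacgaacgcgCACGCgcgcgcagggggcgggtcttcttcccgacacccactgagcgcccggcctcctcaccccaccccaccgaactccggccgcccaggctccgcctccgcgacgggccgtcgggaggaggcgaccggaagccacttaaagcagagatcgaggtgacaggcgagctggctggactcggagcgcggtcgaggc

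Of the 34 lists examined, the one with the lowest median was that of the integrated stress response (ISR). In this pathway, kinases that sense amino acid shortage, haem or unfolded proteins slow translation and thereby raise ATF4, which activates amino acid synthesis, transport and tRNA charging. Of 34 ISR and ATF4 targets tested, 28 were lower (82.4%, against 15.7% of all genes tested) and none higher, with a median log2 fold change of -0.65. ASNS (ENSG00000070669, chr7:97852118-97872542, minus strand), asparagine synthetase, fell from 299, 255 and 256 to 134, 133 and 118 CPM (-1.07, SE 0.101, adjusted p = 7.79e-07). PSAT1 (ENSG00000135069, chr9:78297143-78330093, plus strand), an enzyme of serine synthesis, fell from 284, 240 and 215 to 112, 115 and 118 CPM (-1.09, SE 0.106, adjusted p = 1.01e-06), and SLC7A5, the large neutral amino acid transporter, from 1221, 1058 and 1138 to 674, 593 and 651 CPM (-0.83, SE 0.0857, adjusted p = 2.02e-06). In all 3 genes, each treated library lay below each untreated one. This was so for 91.9% of all genes called lower, and these 3 were named for their small p. ATF4 fell from 626, 442 and 511 to 336, 237 and 306 CPM (-0.84, adjusted p = 4.73e-05). The element TGATGNAA, to which ATF4 binds with a C/EBP partner, was found on either strand in 8 of the 29 members with a promoter and in 3.62% of all promoters. All 8 were lower, but so were 24 of the 29, and the list was drawn up from known targets. A link of the element to the decrease was not tested. The ASNS promoter (RefSeq, GRCh38.p14, chr7:97872359-97872658, minus strand) is shown with this element in capitals, since ASNS had the smallest p of the list:
ASNS: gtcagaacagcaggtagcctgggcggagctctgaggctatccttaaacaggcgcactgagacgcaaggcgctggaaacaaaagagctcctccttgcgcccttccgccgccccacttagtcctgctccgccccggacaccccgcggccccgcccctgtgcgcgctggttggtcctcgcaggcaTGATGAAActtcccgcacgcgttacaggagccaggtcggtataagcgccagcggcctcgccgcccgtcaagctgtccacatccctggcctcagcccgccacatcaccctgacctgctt

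The stress genes depended in size on untreated replicate 1. DDIT4, an inhibitor of mTORC1 signalling, was at 336, 95.6 and 114 CPM untreated and 60.1, 25.6 and 47.99 CPM treated (-2.02, SE 0.345, adjusted p = 0.000259), and the value was -1.24 without untreated replicate 1. CHAC1, which degrades glutathione, was at 82.3, 23.3 and 23.4 and 13.7, 5.53 and 17.7 CPM (-1.80, SE 0.394, adjusted p = 0.00206), and -0.93 without it. DDIT3, which encodes the factor CHOP, was at 207, 13.9 and 20.4 and 26.02, 11.1 and 19.7 CPM (-2.07, adjusted p = 0.0199), so that untreated replicates 2 and 3 lay within the treated range. It overlaps the tRNA synthetase gene MARS on the opposite strand. Without untreated replicate 1, 22 ISR members were lower and 1 higher, with a median of -0.42. ER chaperones depended on it throughout. Of 20 tested, 6 were lower and none higher (median -0.20), and without untreated replicate 1 none was lower and 2 were higher (median 0.09). Without treated replicate 3, 3 were lower, and without treated replicate 2, 1 was higher. HERPUD1, an ER stress protein, was at 355, 62.5 and 58.1 CPM untreated and 61.9, 57.4 and 55.9 CPM treated (-1.44, adjusted p = 0.0173), and its log2 fold change without that library was -0.06 (adjusted p = 0.642). The chaperone HSPA5 (BiP) was at 2396, 928 and 942 and 825, 850 and 769 CPM (-0.80, adjusted p = 0.0132), and -0.21 without it (adjusted p = 0.063). CANX, the chaperone calnexin, had a value of -0.22 (adjusted p = 0.0164).

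Most genes of the translation machinery were lower. Among all genes tested, 15.7% were lower and 15.9% higher. Of 20 cytosolic aminoacyl-tRNA synthetases, 17 were lower and none higher (median -0.39), and 16 were lower without untreated replicate 1. YARS, which charges tRNA with tyrosine, fell from 324, 291 and 295 to 195, 201 and 186 CPM (-0.64, SE 0.0662, adjusted p = 2.02e-06), IARS, for isoleucine, by 0.58 (adjusted p = 3.33e-06), and MARS, for methionine, by 0.47 on the log2 scale (adjusted p = 9.90e-06). YARS overlaps S100PBP on the opposite strand. Of 80 cytosolic ribosomal protein genes, 71 were lower and none higher, with a median of -0.40, and 66 were lower without untreated replicate 1. RPL14 fell from 362, 336 and 380 to 248, 215 and 231 CPM (-0.63, SE 0.06804, adjusted p = 3.18e-06), RPL35 from 330, 308 and 344 to 247, 210 and 224 CPM (-0.53, adjusted p = 3.69e-05), and RPL24 from 227, 208 and 230 to 172, 151 and 151 CPM (-0.49, adjusted p = 4.21e-05). Ribosomal protein mRNAs share sequence with many processed pseudogenes, so that their counts are uncertain where reads could be split. Of 2563 processed pseudogenes tested, 601 (23.4%) were lower and 72 (2.81%) higher.

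In 4 lists of nuclear genes for the mitochondrion, 33.3% to 66.7% of the members were lower, against 15.7% of all genes tested, and 10 of the 13 mRNAs of the mitochondrial genome were higher. Mitochondria make 13 proteins on their own ribosomes, whose proteins, like most of the respiratory chain, are encoded in the nucleus. Of 76 mitochondrial ribosomal protein genes, 37 were lower and none higher (median -0.22). MRPS34 fell from 119, 128 and 125 to 86.97, 89.4 and 83.9 CPM (-0.52, SE 0.0652, adjusted p = 1.74e-05), MRPL4 by 0.48 (adjusted p = 4.05e-05) and MRPS27 by 0.42 on the log2 scale (adjusted p = 2.97e-05). Of 30 factors of mitochondrial gene expression, 16 were lower and none higher (median -0.30), among them the elongation factor gene TUFM (-0.50, adjusted p = 7.43e-06), the mRNA-stability factor LRPPRC (-0.46, adjusted p = 5.52e-05) and the membrane insertase OXA1L (-0.43, adjusted p = 6.63e-05). Chaperones and proteases of the mitochondrion, which fold and clear its proteins, were lower in 10 of 15 and higher in none (median -0.41). The chaperone TRAP1 fell from 389, 390 and 395 to 245, 249 and 234 CPM (-0.69, SE 0.0609, adjusted p = 4.22e-07), the protease LONP1 from 212, 218 and 214 to 144, 150 and 142 CPM (-0.56, adjusted p = 2.02e-06), and the prohibitin PHB2 by 0.50 on the log2 scale (adjusted p = 1.89e-05). TRAP1, LONP1 and MRPS27 overlap other genes on the opposite strand. Of 75 nuclear-encoded respiratory chain genes, 25 were lower and 1 higher (median -0.13), and 14 were lower without treated replicate 3. The ATP synthase genes ATP5G1 (-0.52, adjusted p = 9.90e-05) and ATP5D (-0.49, adjusted p = 2.12e-05) fell, and the higher member was UQCRFS1, the Rieske iron-sulfur protein of complex III, from 74.1, 77.5 and 80.3 to 108, 103 and 94.95 CPM (0.40, adjusted p = 0.000185).

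Of the 13 mitochondrially encoded mRNAs, 10 were higher (76.9%, against 15.9% of all genes tested) and none lower, with a median log2 fold change of 0.40. MT-CYB, cytochrome b, went from 2061, 2125 and 2246 to 3760, 3030 and 2967 CPM (0.60, SE 0.116, adjusted p = 0.000743). MT-ND3, a complex I subunit, went from 741, 846 and 792 to 1011, 1109 and 1010 CPM (0.40, SE 0.0841, adjusted p = 0.00159), and MT-ATP6, an ATP synthase subunit, from 2349, 2569 and 2538 to 3798, 3648 and 3078 CPM (0.50, SE 0.112, adjusted p = 0.00251). MT-ATP6 overlaps MT-ATP8 and MT-CO3 on the same strand. The groups did not overlap in 9 of the 13 mRNAs, against 21.1% of all genes tested. MT-CO1 (0.02, adjusted p = 0.898), MT-CO2 (0.22, adjusted p = 0.153) and MT-ND6 (0.25, adjusted p = 0.388) were the 3 without a call. Together the 13 made up 27720 to 30030 CPM in untreated and 33340 to 39870 CPM in treated libraries. Without untreated replicate 1, 6 of the 13 were higher.

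Most listed genes of the interferon response and of antigen presentation were higher. Interferons act through transcription factors that bind the interferon-stimulated response element (ISRE), and their targets include antiviral proteins and MHC class I. Of 30 interferon-response genes tested, 20 were higher (66.7%, against 15.9% of all genes tested) and none lower (median 0.49). The list has 38 genes in the data, and IFI44, IFI44L, MX2, OAS2, RSAD2, XAF1, GBP1 and SAMD9L had too few counts to be tested. SAMD9 (ENSG00000205413, chr7:93099513-93118023, minus strand), an antiviral factor, went from 14.8, 20.6 and 18.4 to 45.2, 44.6 and 47.1 CPM (1.35, SE 0.104, adjusted p = 9.01e-08). IRF7 (ENSG00000185507, chr11:612553-615999, minus strand), a transcription factor of the pathway, went from 2.53, 3.05 and 2.72 to 8.02, 9.56 and 7.87 CPM (1.61, SE 0.171, adjusted p = 2.67e-06), and IFITM3, which blocks viral entry, from 194, 159 and 175 to 342, 268 and 294 CPM (0.78, SE 0.0899, adjusted p = 7.20e-06). In each of these, named for their small p, the treated libraries lay above the untreated ones, as in 93.9% of all genes called higher. Smaller increases were those of STAT2 (0.56, adjusted p = 0.000766) and ISG15 (0.48, adjusted p = 0.000636), a ubiquitin-like modifier. MX1 (0.47, adjusted p = 0.316), IRF9 (0.29, adjusted p = 0.596) and BST2 (0.21, adjusted p = 0.637) were not called. The ISRE core, GAAA followed by NN and GAAA, was found, on either strand, in 17 of the 22 members with a promoter in the table, 12 of them among the 14 higher ones, and in 3.57% of all promoters. This list, too, was drawn up from known targets, and a link of the core to the increase was not tested. The promoters of SAMD9 (chr7:93117930-93118229, minus strand) and IFITM3 (chr11:320811-321110, minus strand), which had small p-values in this list, are shown with the core in capitals (RefSeq, GRCh38.p14):
SAMD9: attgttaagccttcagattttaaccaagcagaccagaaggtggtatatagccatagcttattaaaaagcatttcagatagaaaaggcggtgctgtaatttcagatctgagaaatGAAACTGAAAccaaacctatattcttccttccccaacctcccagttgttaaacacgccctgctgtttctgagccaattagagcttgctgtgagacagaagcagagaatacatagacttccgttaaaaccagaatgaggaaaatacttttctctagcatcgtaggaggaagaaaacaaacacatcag
IFITM3: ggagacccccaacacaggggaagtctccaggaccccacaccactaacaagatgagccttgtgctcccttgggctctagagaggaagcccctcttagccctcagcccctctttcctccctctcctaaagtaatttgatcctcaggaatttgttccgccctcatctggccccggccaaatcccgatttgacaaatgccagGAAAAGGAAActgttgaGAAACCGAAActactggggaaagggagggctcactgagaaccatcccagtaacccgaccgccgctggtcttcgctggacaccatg

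Of 19 MHC class I and class II genes, including peptide loading genes and the activator NLRC5, 17 were higher (89.5%) and none lower (median 0.62). Among all genes tested, 15.9% were higher. B2M, the shared light chain of class I, went from 294, 296 and 306 to 425, 377 and 425 CPM (0.45, SE 0.0617, adjusted p = 3.69e-05). Class II genes had larger log2 fold changes at low levels, such as HLA-DRB1, from 1.097, 0.782 and 1.07 to 3.599, 2.77 and 3.15 CPM (1.69, adjusted p = 3.81e-05), and HLA-DRA, from 1.44, 2.58 and 2.31 to 5.32, 4.74 and 6.53 CPM (1.38, adjusted p = 0.000131). NLRC5, the activator of class I genes, had a log2 fold change of 0.80 (adjusted p = 0.00023), and the 2 members without a call were TAP2 (0.07) and the invariant chain CD74 (-0.07). HLA genes are alike in sequence, so that reads may be split among them. Without untreated replicate 1, 18 interferon-response and 14 MHC genes were higher.

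**Figure D3:**
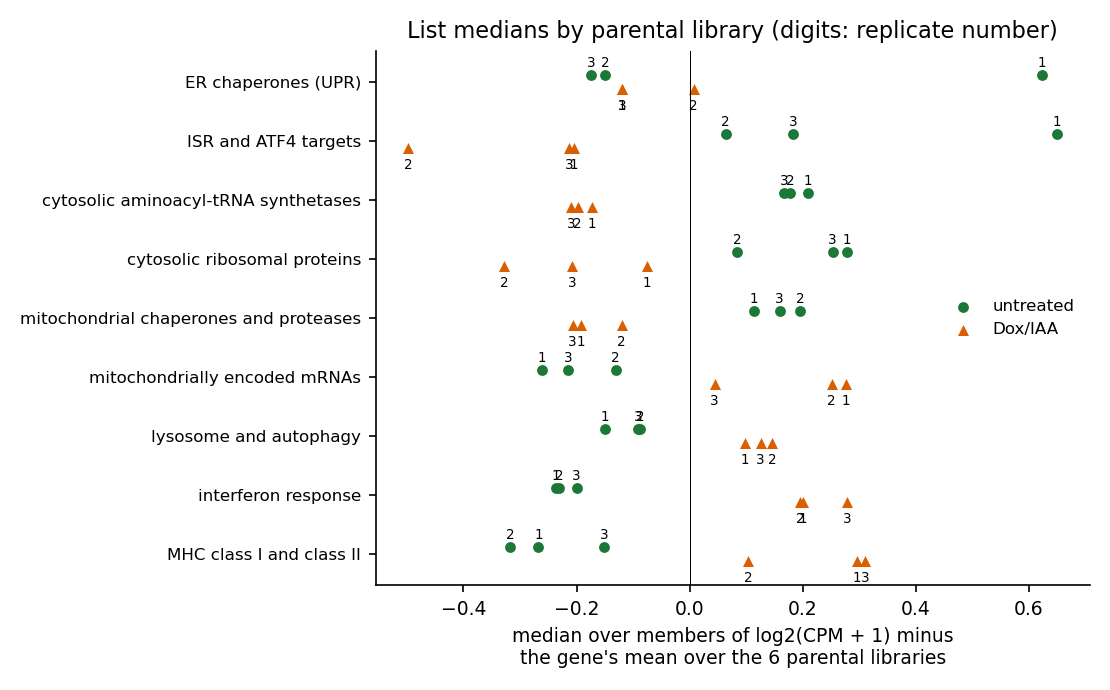
For 9 lists, the x axis gives the median over members of log2(CPM + 1) minus the mean of the gene over the 6 parental libraries, with 1 point per library (green circles untreated, orange triangles Dox/IAA, digits the replicate number). Untreated replicate 1 lies at 0.62 for ER chaperones, while the other 2 untreated libraries lie at -0.15 and -0.17, below the 3 treated ones. In the other 8 lists, the treated and untreated libraries do not overlap.

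Of 28 lysosome and autophagy genes, 13 were higher and 1 lower (median 0.23), and 9 were higher without untreated replicate 1. For this list and the next 2, the shares of all genes tested were 15.9% higher and 15.7% lower. The protease CTSB went from 296, 296 and 321 to 727, 594 and 666 CPM (1.12, SE 0.0724, adjusted p = 1.29e-08), and the sialidase NEU1 from 32.5, 27.6 and 28.7 to 51.96, 53.2 and 51.5 CPM (0.82, SE 0.0858, adjusted p = 2.34e-06). The lower member was the autophagy receptor SQSTM1 (-0.36, adjusted p = 0.00251), joined by another without treated replicate 2. Of 12 iron-handling genes, 3 were higher and 5 lower, and 1 was higher without untreated replicate 1 or 3 or treated replicate 3. The transferrin receptor TFRC fell from 657, 683 and 605 to 409, 408 and 402 CPM (-0.68, SE 0.0788, adjusted p = 7.65e-06), the ferrireductase STEAP3 by 0.53 (adjusted p = 8.57e-05), and the ferritin heavy chain FTH1, which overlaps BEST1 on the opposite strand, by 0.46 on the log2 scale (adjusted p = 0.000333). Of 9 metallothionein and zinc transport genes, 4 were lower and none higher, such as the metal-binding proteins MT1E (-0.62, adjusted p = 1.39e-05) and MT2A (-0.45, adjusted p = 0.000166), which are near-identical paralogs of others, and the zinc transporter SLC39A14 (-0.52, adjusted p = 0.00208), whose value was -0.31 without untreated replicate 1.

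Target genes of Wnt/β-catenin signalling, which is constitutively active in HCT116, went both ways. Of 15 tested, 8 were higher and 3 lower (median 0.51). The Wnt deacylase gene NOTUM (ENSG00000185269, chr17:81952507-81961840, minus strand) went from 18.7, 20.7 and 22.99 to 53.6, 44.01 and 69.7 CPM (1.42, SE 0.127, adjusted p = 4.52e-07), and TCF7, a β-catenin partner that overlaps SKP1 on the opposite strand, from 32.8, 37.8 and 33.9 to 50.7, 59.9 and 57.8 CPM (0.69, adjusted p = 1.45e-05). The feedback inhibitors AXIN2 (0.46, adjusted p = 0.0231), NKD1 (0.78, adjusted p = 7.90e-05) and DKK1 (0.51, adjusted p = 0.000582) rose as well. The lower ones were MYC (ENSG00000136997, chr8:127735434-127741434, plus strand), from 537, 413 and 490 to 224, 161 and 250 CPM (-1.18, SE 0.125, adjusted p = 2.66e-06), the adhesion receptor CD44 (-0.66, adjusted p = 3.89e-05) and the ubiquitin ligase RNF43 (-0.30, adjusted p = 0.0389). Of 26 immediate early and AP-1 genes, 4 were higher (15.4%) and 3 lower (11.5%), no larger shares than the 15.9% and 15.7% of all genes tested. The higher ones were EGR3, from 1.27, 1.41 and 0.494 to 6.15, 3.397 and 6.61 CPM (2.34, adjusted p = 6.18e-05), EGR2 (1.68, adjusted p = 0.00121), EGR1, from 167, 81.00 and 52.98 to 245, 104 and 434 CPM (1.38, adjusted p = 0.0174), and FOS (0.87, adjusted p = 0.0297), which encode growth factor-induced transcription factors. EGR1 overlapped between the groups, and 2 of the list were higher when untreated replicate 2 or 3 or treated replicate 3 was left out.

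Metabolic lists showed no common direction with all libraries in the fit. As the background, 15.9% of all genes tested were higher and 15.7% lower. Of 35 glycolysis and hypoxia genes, 8 were higher and 8 lower, with HK2 (-0.78, adjusted p = 1.81e-05) lower, and HK1 (0.42, adjusted p = 0.000125), both hexokinases, and the hypoxia-responsive NDRG1 higher, the latter from 107, 101 and 111 to 234, 198 and 250 CPM (1.10, adjusted p = 2.50e-08). Of 24 cholesterol synthesis genes, 1 was higher (4.17%; TM7SF2, a sterol reductase, 0.59, adjusted p = 0.00118) and 2 lower (8.33%), SQLE, squalene epoxidase (-0.51, adjusted p = 0.0131), and MVD, mevalonate diphosphate decarboxylase (-0.35, adjusted p = 0.0391). Without untreated replicate 1 or treated replicate 2, 2 were higher and none lower, and 1 was lower without untreated replicate 2 or treated replicate 1 or 3. With a block for replicate number, 2 were higher. Of 15 fatty acid synthesis genes, only the regulator SREBF1 passed the test, higher (0.49, adjusted p = 0.00124), whereas ACACA, acetyl-CoA carboxylase (-0.23, adjusted p = 0.0742), and ME1, malic enzyme (0.19, adjusted p = 0.0586), did not. Without untreated replicate 1 or 2, 2 of this list were higher, and without untreated replicate 2 also 1 was lower. With the block, 2 were higher and 1 lower, and ACACA (-0.24, adjusted p = 0.0205) and ME1 (0.19, adjusted p = 0.0348) passed the test. Of 19 NRF2 targets, 4 were higher and 6 lower, among them TKT, transketolase (-0.37, adjusted p = 0.000206), and TXNRD1, thioredoxin reductase (-0.27, adjusted p = 0.0102). Without untreated replicate 1, none was higher and 8 were lower. Without treated replicate 3, 2 were higher, and with the block, 5 were higher and 10 lower. Of 19 xenobiotic enzymes and transporters, 5 were higher and 4 lower (3 higher without treated replicate 1 or 3), with the export pump ABCC2, also an NRF2 target, falling from 275, 191 and 277 to 125, 83.3 and 129 CPM (-1.14, SE 0.139, adjusted p = 1.23e-05). Of 18 listed genes of tryptophan and kynurenine metabolism, only 7 had enough counts to be tested. Of these 7, 2 were higher, the monoamine oxidases MAOB (0.75, adjusted p = 2.10e-06) and MAOA (0.29, adjusted p = 0.0327), and 1 lower, AFMID, kynurenine formamidase (-0.31, adjusted p = 0.00467). Without untreated replicate 3 or treated replicate 1 or 3, 1 was higher.

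Of 29 p53 targets, 2 were higher (6.90%) and 6 lower (20.7%), against 15.9% and 15.7% of all genes tested. The kinase PLK2 fell from 147, 142 and 158 to 55.2, 56.8 and 73.7 CPM (-1.27, SE 0.0887, adjusted p = 2.63e-08), and the growth-arrest gene GADD45A (-0.61, adjusted p = 0.00264) and the repair factor DDB2 (-0.49, adjusted p = 0.00103) fell as well. CDKN1A, the cell-cycle inhibitor p21, had a value of 0.06 (adjusted p = 0.65). Of 18 YAP/TAZ targets, 8 were higher and 2 lower (5 higher without untreated replicate 2), such as the angiomotin-like AMOTL1 (0.36, adjusted p = 0.000826), the membrane protein CRIM1 (0.47, adjusted p = 0.000487) and the guanine nucleotide exchange factor ARHGEF17 (0.48, adjusted p = 0.00208). Of 17 TGF-β and BMP targets, 3 were higher (17.6%, near the share of all genes) and 1 lower (5.88%). Among the former were ID2, an inhibitor of bHLH factors, from 69.6, 64.97 and 67.1 to 124, 132 and 131 CPM (0.94, SE 0.0651, adjusted p = 2.44e-08), and TGFB1 (0.48, adjusted p = 0.000378), the ligand, and the lower one was the inhibitory SMAD6 (-0.50, adjusted p = 0.0127). None of these was lower without untreated replicate 3 or treated replicate 1, and 2 were without untreated replicate 1 or treated replicate 3. With a block for replicate number, 6 were higher and 2 lower. Of 14 matrix proteases and inhibitors, 5 were higher and 1 lower (3 higher without untreated replicate 2 or 3 or treated replicate 3). ADAM9, a sheddase (0.62, adjusted p = 1.36e-06), and TIMP1, a metalloprotease inhibitor (0.54, adjusted p = 4.18e-05), rose, while PLAU, urokinase, fell from 198, 121 and 180 to 83.7, 70.5 and 87.9 CPM (-1.04, SE 0.125, adjusted p = 1.08e-05). Of 26 genes listed for colon epithelium differentiation, only 7 had enough counts to be tested. Of these 7, 2 were lower, the peptidase DPP4 (-1.15, adjusted p = 8.60e-05) and the keratin KRT20 (-0.94, adjusted p = 0.0104), and none higher. The transcription factor KLF4 was at -0.28 (adjusted p = 0.0737), and at -0.28 with the block (adjusted p = 0.0265). Of 26 listed NF-κB targets, 14 had enough counts to be tested. Of these 14, 1 was higher and 4 lower, among the latter the inhibitor NFKBIA (-0.60, adjusted p = 0.000197), the superoxide dismutase SOD2 (-0.42, adjusted p = 0.000416) and NFKB2 (-0.24, adjusted p = 0.0265). Without untreated replicate 3 or treated replicate 1 or 3, 2 were lower, and none was higher without untreated replicate 2 or treated replicate 1 or 2.

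Most mRNAs of SDS22, of its partners and of the SCF ubiquitin ligase did not pass the test. This was so for most genes, since 15.9% of all genes tested were higher and 15.7% lower. PPP1R7, which encodes SDS22, was at 40.1, 47.7 and 43.2 CPM untreated and 44.2, 50.01 and 42.1 CPM treated, a log2 fold change of 0.06 (SE 0.0889, adjusted p = 0.672) with overlapping groups. It overlaps PASK on the opposite strand. The genes of the 3 catalytic isoforms of protein phosphatase 1 had log2 fold changes of 0.22 for PPP1CA (adjusted p = 0.00837), 0.07 for PPP1CB (adjusted p = 0.651) and -0.16 for PPP1CC (adjusted p = 0.126), of which only PPP1CA passed the test, higher. With a block for replicate number, PPP1CC passed as well, lower (-0.16, adjusted p = 0.0493). Of 13 genes for PP1 isoforms and the SDS22 complex, 3 were higher and none lower (5 and 2 with the block), and the other 2 higher ones were the myosin phosphatase subunit PPP1R12A (0.26, adjusted p = 0.00582) and the VCP cofactor UBXN2A (0.31, adjusted p = 0.00842). PPP1CA, which overlaps CARNS1 and RAD9A on the opposite strand, lost its call after a correction for GC content. In this list, 1 gene was lower without untreated replicate 3 or treated replicate 1. Of 20 SCF ubiquitin ligase components, 5 were higher and 1 lower (3 with the block), with the F-box genes FBXO11 (0.26, adjusted p = 0.00432) and FBXW11 (0.23, adjusted p = 0.0172) among the higher ones. When a parental library was left out, 1 (treated replicate 3), 2 (untreated replicate 1) or 3 (untreated replicate 3) were higher. None was lower without untreated replicate 1 or 2 or treated replicate 1 or 3, whereas 2 were without untreated replicate 3 and 3 without treated replicate 2.

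For several genes named above, the call was lost when 1 or another of the parental libraries was left out. The adjusted p of SQLE was 0.0589 without untreated replicate 1 and 0.0516 without treated replicate 2, and that of SMAD6 0.0597 without untreated replicate 3 and 0.0695 without treated replicate 1. HERPUD1 reached 0.0547 without treated replicate 3, and CANX 0.0702 without untreated replicate 1. FBXW11 lost its call without untreated replicate 1 or 3 or treated replicate 3 (highest adjusted p 0.108), NFKB2 without untreated replicate 3 or treated replicate 1 or 3 (0.156, with a log2 fold change of -0.16 without untreated replicate 3), and MAOA without untreated replicate 1 or 3 or treated replicate 1 or 3 (0.145). Of the 6 parental libraries, only untreated replicate 3 could be left out without a loss of the call of MVD (highest 0.108). The log2 fold changes of these genes kept their sign.

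Of 65 cell division genes, 7 were lower and none higher (median -0.12), and this share, 10.8%, is below the 15.7% lower among all genes tested. Of 49 DNA replication genes, 16 were lower (32.7%) and none higher (median -0.19). With a block for replicate number, 14 cell division genes were lower, and 21 DNA replication genes were lower and 1 higher. The median of log2(CPM + 1) over the cell division list, relative to the mean of each gene over the 6 parental libraries, was -0.03, 0.23 and -0.01 in untreated and -0.24, 0.21 and -0.14 in treated replicates 1 to 3, lower in the treated library of each number. The kinesin KIF18A fell from 99.4, 99.2 and 99.9 to 64.8, 73.8 and 66.3 CPM (-0.54, SE 0.0809, adjusted p = 8.05e-05), the phosphatase CDC25B by 0.42 (adjusted p = 0.000634) and the spindle factor TPX2 by 0.30 on the log2 scale (adjusted p = 0.0193), which did not pass without untreated replicate 2 or treated replicate 1 or 3 (highest 0.123). The helicase subunit MCM7 fell from 570, 607 and 568 to 404, 466 and 410 CPM (-0.45, SE 0.0734, adjusted p = 0.000186), the licensing factor CDT1 by 0.43 (adjusted p = 0.000134) and the polymerase subunit POLD2 by 0.38 on the log2 scale (adjusted p = 0.000166). KIF18A and MCM7 overlap METTL15 and AP4M1 on the opposite strand. Both lists depended on treated replicate 2, since 29 cell division and 28 DNA replication genes were lower without it. When untreated replicate 2 or treated replicate 1 or 3 was left out, 2 cell division and 8 to 9 DNA replication genes were lower. In SDS22-degron cells, all 65 cell division and all 49 DNA replication genes were lower with the same treatment (medians -1.32 and -1.15), and the difference between the lines passed the interaction test in 63 and 44 of them.

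Most of the parental response recurred in SDS22-degron cells, whose 6 libraries are separate from the 6 parental ones. In that line, 26.0% of the genes tested were higher and 25.5% lower. Of the 5264 genes called in parental cells, 3894 (74.0%) were called in the same direction there, 2031 of the 2656 higher (76.5%) and 1863 of the 2608 lower ones (71.4%), and 45 and 37 were called in the opposite direction. The size of the effect differed between the lines, by the interaction test, for 14.4% of all genes tested (6.03% more positive and 8.35% more negative) and for 997 of the 5264, with a more positive value in SDS22-degron cells in 412 and a more negative one in 585. With a block for replicate number, 693 were more positive and 792 more negative. CEMIP rose further there (3.74, interaction 1.01, adjusted p = 0.000143), and NTN1 rose less (0.69, interaction -1.27, adjusted p = 4.10e-05). NRGN, a calmodulin-binding protein, rose in parental cells (0.51) and fell in SDS22-degron cells (-1.25, interaction adjusted p = 4.09e-07), and the epithelial factor ELF3, which overlaps ELF3-AS1 on the opposite strand, fell in parental (-1.05) and rose in SDS22-degron cells (0.49, interaction adjusted p = 2.76e-05).

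Lists compared in the same way gave an uneven picture. Of the 30 interferon-response genes, 27 were higher in SDS22-degron cells (median 1.14 against 0.49), with a more positive interaction in 12 and a more negative one in 1. Of the 34 ISR targets, 5 were higher and 14 lower there (median -0.10 against -0.65, or -0.42 in parental cells without their untreated replicate 1), and 15 had a more positive interaction. That number was 9 without parental untreated replicate 1, 9 without SDS22-degron untreated replicate 1 and 8 without SDS22-degron Dox/IAA replicate 1. The 5 higher ones were 1 to 3 without SDS22-degron untreated replicate 1 or 2 or Dox/IAA replicate 1 or 3. Of the 80 cytosolic ribosomal proteins, 36 were lower (median -0.18 against -0.40), but 20 to 23 without SDS22-degron untreated replicate 1 or 3 or Dox/IAA replicate 3. A more positive interaction was found in 9, in 22 with the block and in 0 to 22 with a library left out, and leaving out any library but SDS22-degron Dox/IAA replicate 3 moved it by more than 1.5 times. By contrast, 64 of 76 mitochondrial ribosomal proteins were lower (median -0.41 against -0.22), and 12 had a more negative interaction (19 with the block). It was 21 without parental untreated replicate 2 and 5 to 6 without parental untreated replicate 3 or Dox/IAA replicate 2 or SDS22-degron untreated replicate 2 or 3. Of the AHR targets, 5 of 10 were higher, and CYP1B1 (2.71, interaction adjusted p = 0.0296), TIPARP (1.07, 0.00211) and AHRR (1.58, 0.0116) had larger log2 fold changes than in parental cells. Of the mitochondrially encoded mRNAs, 5 of 13 were higher and 1 lower (median 0.24 against 0.40), with 9 higher without SDS22-degron Dox/IAA replicate 1 and 3 without replicate 3. A more negative interaction was found in 1 of them, and in 2 without parental untreated replicate 2 or SDS22-degron Dox/IAA replicate 2.

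**Figure D4:**
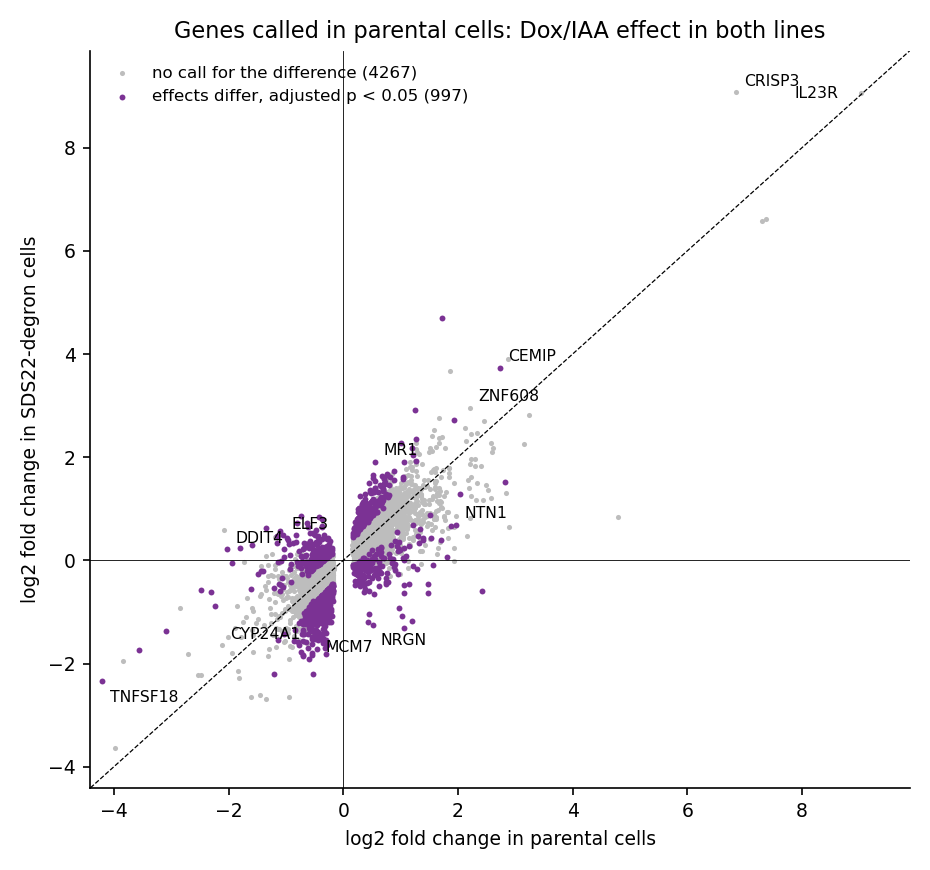
For the 5264 genes called in parental cells, the x axis is the log2 fold change with Dox/IAA in parental cells and the y axis that in SDS22-degron cells, with the dashed line at equal values. Purple points mark the 997 genes whose effects differed by the interaction test. NRGN and MCM7 lie below the line and DDIT4 above it.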

How the data were processed

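RNA of HCT116 cells was sequenced as stranded, poly-A selected libraries (single reads of 75 bases), with 3 per condition and 12 in all. The table that the authors deposited gives raw, unnormalized counts for each gene, its position and its GC content as a percent. The submitters' processing notes name cutadapt 1.15, Bowtie2 2.3.3.1, STAR 2.5.2b, SAMtools 1.5, featureCounts 1.5.3 and GRCh38. The strand setting of the counting and the annotation release are not given in the sources used here. The deposited table holds 58233 genes, of which 30524 had at least 1 count. The 12 libraries held 12133915 to 14657508 counts.

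Conditions were taken from the labels. The genes kept by filterByExpr by group (minimum count 10) numbered 16657. They were fitted with edgeR 4.0.16 in R 4.3.3 (TMM, a mean per group, all 12 libraries, quasi-likelihood F test, Benjamini-Hochberg adjustment over all genes tested). The median SE of a log2 fold change was 0.110. The exact permutation test of 3 against 3 cannot go below p = 0.1 and was not used. No parental libraries were identical, and chi-square per degree of freedom within groups was 3.08 to 9.02. Deviations from group means correlated at 0.124 to 0.246 between parental libraries of the same replicate number and at -0.184 to 0.0638 otherwise. These values are low, but point to a pairing of the parental samples by replicate number. Between untreated and treated SDS22-degron libraries of the same number they were -0.00926 to 0.0953. The main fit has no block, and the block was fitted over all 12 libraries. The pairing comes from this check and not from the labels.

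The text names the 12 highest and 12 lowest genes (adjusted p under 0.05, groups not overlapping, mean of at least 5 CPM over the parental libraries, a named symbol), up to 3 members of smallest p from each of 34 lists, genes of smallest interaction p (4 per direction), and the PP1, SDS22 and AHR genes. Members and lists were chosen with earlier results of these data known, the lists from general knowledge of each process. Calls are counted over the tested members of a list. Genes named beyond this rule were chosen after their values were seen. A few genes that the rule gives are not reported here. Of the 131 others, 29 overlap another gene with counts, also where the text does not say so (HK2, SOD2, TXNRD1, ME1, FBXO11, PPP1R12A, CRIM1, TGFB1, SREBF1, TIMP1 and TM7SF2).

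As alternatives, edgeR's likelihood ratio test and DESeq2 1.42.0 were run, as were library size, upper quartile or full-quantile scaling, no filter, a filter of 1 CPM, parental libraries only, the replicate number as a block, a GC correction per library (loess, span 0.3) with and without the block, and each library left out. The procedure was tested on simulated data for the parental comparison (16133 genes), where 88.7% of 97 genes planted at an absolute log2 fold change of 1 and 46.9% of 96 planted at 0.5 were recovered, and 9 unchanged genes were called. Promoter windows (RefSeq, GRCh38.p14) run from 250 bases before to 50 after a start, and motifs were matched on both strands.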

Additional observations from a re-analysis of the deposited data

Results flagged for a closer look

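Of the 131 named genes, 40 had a Dox/IAA effect that differed between the lines by the interaction test of edgeR (adjusted p under 0.05). Some of them, such as ELF3 and RNF141, were named for their small interaction p, so that passing this test was part of the choice. Among all genes tested, 14.4% passed it, and the count among named genes cannot be set against that share. The values below are differences on the log2 scale, SDS22-degron minus parental cells. In 21 genes the value was more positive and in 19 more negative. The stress genes DDIT4 (2.248) and CHAC1 (2.045) had the largest positive differences, and in both untreated parental replicate 1 was far above the other 2. TNFSF18 (1.863) fell in both lines, less so in SDS22-degron cells. Genes that fell in parental cells and had a more positive value also included ELF3 (1.543), DPP4 (1.49), GADD45A (1.259), PLAU (1.11), ABCC2 (1.106), RGS2 (1.047), SERINC5 (1.026), SMAD6 (0.9839), RNF141 (0.8137) and PSAT1 (0.5101). Genes that rose in parental cells and more so in SDS22-degron cells were MR1 (1.362), an MHC class I-related gene, CEMIP (1.007), CYP1B1 (0.7885), AHRR (0.5453), TM7SF2 (0.5147), TIPARP (0.4867), IFITM3 (0.457) and B2M (0.4489).

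Genes higher in parental cells with a more negative value in SDS22-degron cells were NRGN (-1.759), B4GALNT1 (-1.626), a ganglioside synthase, NTN1 (-1.269), ARHGAP31 (-0.7458), TCF7 (-0.6294), UQCRFS1 (-0.4233) and AMOTL1 (-0.3191). Genes lower in parental cells and further down in SDS22-degron cells were TPX2 (-1.118), SAPCD2 (-1.046), MCM7 (-0.9339), NSD2 (-0.8915), a histone methyltransferase, CDT1 (-0.6462), KIF18A (-0.5284), ATP5G1 (-0.4618), MT1E (-0.4035), TFRC (-0.3984), HSP90AB1 (-0.365), MT2A (-0.3352) and POLD2 (-0.3135). Groups of 3 libraries were not tested for single outlying samples.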

How the results depend on the processing

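The number of higher genes was 2656, 1972 to 2660 with a library left out and 2187 to 3503 under the other settings. That of lower genes was 2608, 1962 to 2614 and 1958 to 3049. Same-direction calls in SDS22-degron cells numbered 3894, and 2923 to 4126 with a library left out. By the study's cut-off (391 higher, 132 lower), no filter gave 610 and 338, and libraries left out 380 to 448 and 143 to 183. The count of genes with a more positive effect in SDS22-degron cells (412) was 693 with the replicate block, 751 with GC correction and the block, and 266 to 482 with a library left out (268 without parental untreated replicate 1, 266 without SDS22-degron untreated replicate 2). That with a more negative effect (585) was 382 to 606 with a library left out (382 without parental Dox/IAA replicate 3). With the replicate block, 2999 genes were higher and 2986 lower, and it moved no other of these counts by over 1.5 times. GC correction gave 2762 and 2743 and kept 94.7% of the higher and 95.8% of the lower calls. Of 124 called named genes, 110 were called in all 23 alternatives. The other 14 were CANX, FBXW11, FTH1, HERPUD1, HSPA5, MAOA, MVD, NFKB2, NSD2, PPP1CA, SMAD6, SQLE, TPX2 and TXNRD1. CANX turned to 0.0178 under full-quantile scaling. The causes were not tested. In the simulated data, 46.9% of the genes planted at 0.5 on the log2 scale were recovered. Only 200 genes were changed there, against 31.6% of genes called here, so this share does not carry over to these data.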
